A study of Mus musculus with 14 samples.

Results

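The integrated stress response regulators and feedback genes described here are 10 named genes: the transcription factor genes Atf4, Atf5, Atf3, Ddit3 and Cebpg, and the feedback and effector genes Trib3, Ppp1r15a, Chac1, Sesn2 and Nupr1. They were chosen by name with earlier results of these data known, so the list gives no independent support. All 10 were found among the 35275 genes of the deposited table. All 10 also passed the filter on low values, which kept 13079 genes. The gene expression of brown adipose tissue was measured by RNA sequencing in 14 mice of strain C57BL/6 aged 8 weeks. Knockout mice had the genotype LrpprcFF Ucp1-Cre, in which floxed alleles of Lrpprc are cut by a Cre recombinase driven from the Ucp1 promoter, active in brown adipocytes. Control mice were LrpprcFF, with the same floxed alleles and no Cre, so every animal of the study carried the floxed alleles. At room temperature (22 °C) there were 4 knockouts and 4 controls, and at thermoneutrality (30 °C) 3 knockouts and 3 controls. The labels name brown adipocytes as the cells, but the RNA was taken from homogenised tissue, so a library holds RNA of every cell type in the depot, and fewer cells of a type cannot be told apart from less RNA per cell.

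The integrated stress response is a signalling pathway in which kinases that sense amino acid shortage, protein misfolding, viral RNA, haem shortage or mitochondrial damage phosphorylate the translation initiation factor eIF2. Translation then falls in general, while a few messenger RNAs with upstream open reading frames, among them those of ATF4 and ATF5, are translated more. ATF4 dimerises with C/EBP and other bZIP proteins, binds C/EBP-ATF response elements and activates genes of amino acid supply, redox defence and the response's own feedback. LRPPRC, the product of the deleted gene, binds messenger RNAs made in mitochondria and keeps them stable.

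Values are given as scaled FPKM, fragments per kilobase of gene relative to the depth of the library, multiplied by one factor for each library so that the typical nuclear gene had the same level in all libraries. The recovered depth was 15.9 to 21.3 M fragments per library, and the recovered reads of a member in a library ran from 18 (Atf3) to 13342 (Atf5). Counting error was small beside the spread between animals, since recovered reads of 18 replicate pairs gave chi-square values of 13.9 to 125 for each degree of freedom. Lrpprc had 25.3 to 57.3 scaled FPKM in 22 °C controls and 8.84 to 11.2 in 22 °C knockouts. It had 30.3 to 32.8 in 30 °C controls and 4.97 to 8.56 in 30 °C knockouts, with a log2 fold change of -1.86 at 22 °C (SE 0.21, limma adjusted p = 0.000373) and -2.06 at 30 °C (SE 0.25, limma adjusted p = 0.000379). Reads of mitochondrial genes took 13.2 to 19.2% of the reads of a control and 1.12 to 3.08% of those of a knockout. The 10 listed brown adipocyte markers were all detected, and their summed level was 6664 to 11166 scaled FPKM in the controls and in 22 °C knockouts 6836 to 10341, against 3552 to 4278 in 30 °C knockouts. Xist had at most 0.0139 scaled FPKM in the 8 animals at 22 °C and 9.70 to 15.3 in the 6 at 30 °C, while the Y-linked Ddx3y had 16.3 to 23.9 at 22 °C and at most 0.0242 at 30 °C. Housing temperature and sex-linked expression therefore cannot be told apart in any comparison between temperatures, and the labels give no sex.

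Promoter sequences were searched for the letters of a C/EBP-ATF response element close to each member's start. The RefSeq promoter table (build GRCm38.p6; 250 bases before to 50 bases after each gene's start) holds an entry for all 10 members. The motif TGATGCAA, searched on both strands and so also as TTGCATCA, was present in the windows of 3 of the 10 members, Atf3, Chac1 and Nupr1. It was present in 0.895% of all 32851 windows of that length and in 1.03% of 27025 genes. The 3 promoters below are the 250 bases before the start, on the gene's own strand, with the motif in capitals. In Atf3 (chr1:191183334-191183583, minus strand) it lay at -110 to -103 from the start, in Chac1 (chr2:119350992-119351241, plus strand) at -193 to -186, and in Nupr1 (chr7:126625471-126625720, minus strand) at -110 to -103.
Atf3: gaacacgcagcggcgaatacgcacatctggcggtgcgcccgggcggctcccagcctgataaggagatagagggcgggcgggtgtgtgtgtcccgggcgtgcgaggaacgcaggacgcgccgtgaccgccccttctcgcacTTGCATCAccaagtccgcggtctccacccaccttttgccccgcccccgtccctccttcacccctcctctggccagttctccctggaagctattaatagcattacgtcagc
Chac1: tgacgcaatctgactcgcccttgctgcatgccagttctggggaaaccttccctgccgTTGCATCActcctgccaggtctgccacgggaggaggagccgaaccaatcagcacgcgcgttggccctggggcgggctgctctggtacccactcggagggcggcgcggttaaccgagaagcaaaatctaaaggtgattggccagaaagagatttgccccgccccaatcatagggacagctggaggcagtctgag
Nupr1: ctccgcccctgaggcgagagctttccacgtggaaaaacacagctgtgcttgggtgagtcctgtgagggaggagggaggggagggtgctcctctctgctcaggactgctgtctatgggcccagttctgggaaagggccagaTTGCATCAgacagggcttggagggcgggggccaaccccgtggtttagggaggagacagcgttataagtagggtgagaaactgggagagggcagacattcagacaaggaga

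The looser motif TGATGNAA, which contains TGATGCAA as a case, was present in 4 of the 10 members and in 3.97% of all windows. The added member was Trib3, whose match TTACATCA lay just after the RefSeq start, at 15 to 22 (chr2:152344028-152344057, minus strand, 30 bases). The bases just after that start were not found in the transcripts of Trib3 in the annotation. The cyclic AMP response motif TGACGTCA, its own reverse complement, was present in Ppp1r15a at -12 to -5 (chr7:45526262-45526291, minus strand, 30 bases) and in 1.79% of all windows. Both are shown with the match in capitals.
Trib3: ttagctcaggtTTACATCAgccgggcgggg
Ppp1r15a: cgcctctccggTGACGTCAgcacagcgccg
A match is a description of these letters, not a binding site. The windows of Atf4, Atf5, Ddit3, Sesn2 and Cebpg held none of these 3 motifs, which says only that the letters are not in them.

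Deletion of Lrpprc at 22 °C was accompanied by higher expression of most of these genes. At an adjusted p under 0.05 (limma, Benjamini-Hochberg over all genes), 7 of the 10 members passed, all higher in knockouts: Atf4, Atf5, Ddit3, Cebpg, Trib3, Ppp1r15a and Nupr1. Of all 13079 genes, 1.97% passed, 0.91% higher and 1.06% lower. The knockout range lay wholly above the control range for 8 of the 10 members, where 4.85% of all genes did so. The median log2 fold change was 1.603 over the members and 0.0021 over all genes, and the estimate was above 0 for all 10. At 30 °C 7 members also passed, all higher: Atf5, Atf3, Ddit3, Trib3, Ppp1r15a, Sesn2 and Nupr1. Many more genes differed there, 14.1% of all genes, 8.82% higher and 5.29% lower. The knockout range lay above the control range for 9 of the 10 members, against 22.1% of all genes. The median was 1.27 over the members and 0.064 over all genes. Atf5, Ddit3, Trib3, Ppp1r15a and Nupr1 passed at both temperatures, Atf4 and Cebpg at 22 °C but not at 30 °C, Atf3 and Sesn2 at 30 °C but not at 22 °C, and Chac1 at neither. A test of the difference between the knockout effects is given further down and passed for no member.

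**Figure D1:**
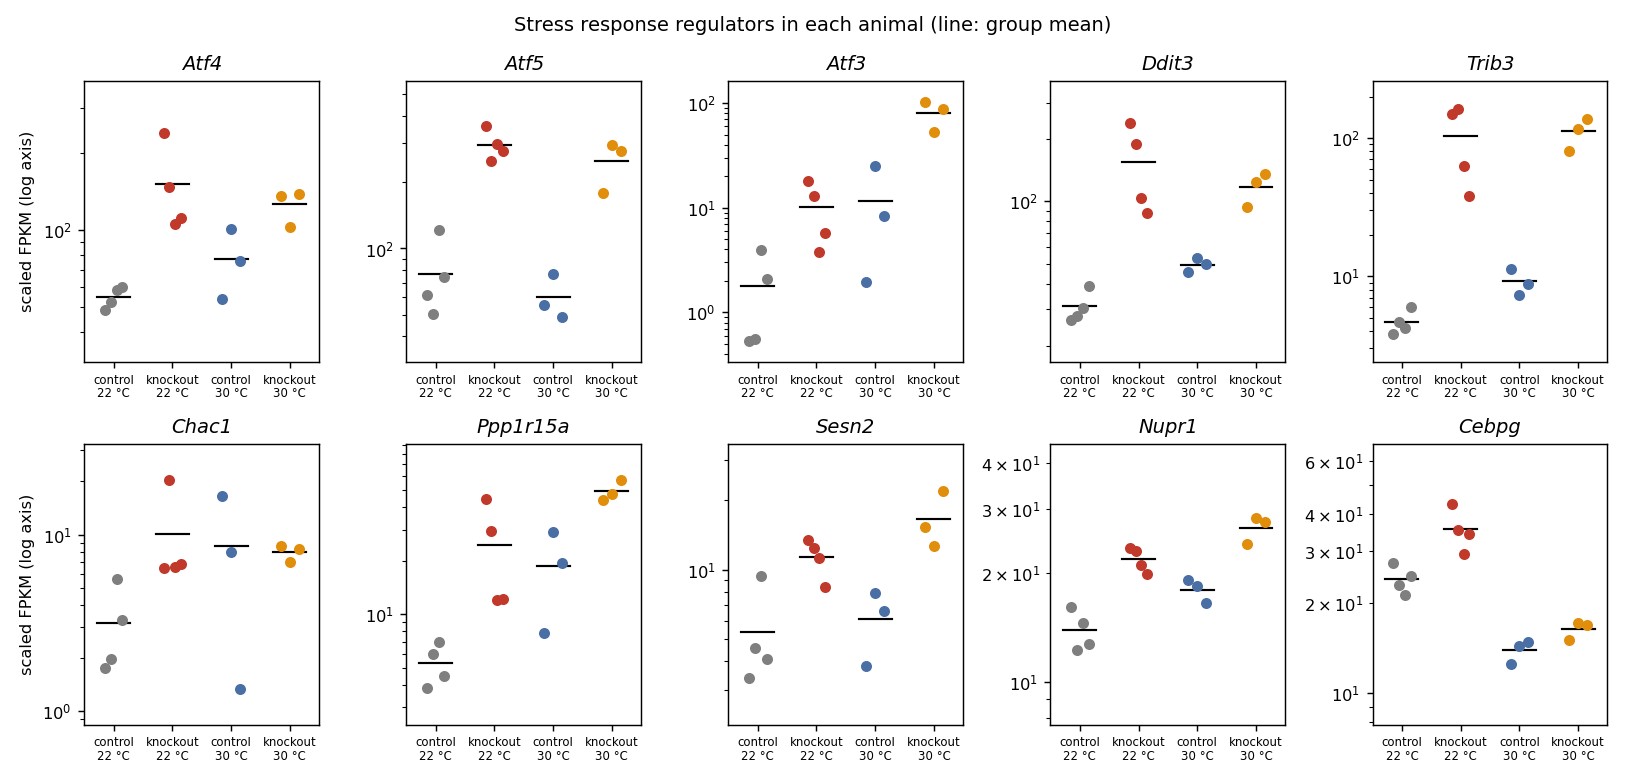
Level of each of the 10 genes in every animal, as scaled FPKM on log axes, by genotype and housing temperature, with a line at each group mean. All knockouts lie above all controls of their temperature for Atf4, Atf5, Ddit3, Trib3, Ppp1r15a, Nupr1 and Cebpg, and the spread within a group is widest for Atf3 and Chac1 in 30 °C controls, where the highest animal had 12.7 and 12.4 times the lowest.

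Scaling changed how many genes passed but no member's direction in either knockout comparison. With FPKM as deposited, the median of all genes moved to 0.24 at 22 °C and 0.31 at 30 °C, and 10 and 9 members passed, all higher. In that setting 3167 genes were higher and 81 lower at 22 °C, against 119 and 139 with scaling, and 4280 were higher and 291 lower at 30 °C, against 1153 and 692. Equal nuclear totals gave 386 genes higher and 75 lower at 22 °C, and 2225 higher and 409 lower at 30 °C. Quantile normalization gave 887 higher and 935 lower at 30 °C. It gave 7 passing members at each temperature, but at 30 °C Atf4 was among them (0.85, limma adjusted p = 0.0487) and Ppp1r15a was not (1.49, limma adjusted p = 0.0533).

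Atf4 (ENSMUSG00000042406, chromosome 15) encodes the transcription factor at the centre of the response, whose protein level is set largely by translation, so its messenger RNA is only part of its control. At 22 °C, Atf4 had 48.8, 52.3, 58.2 and 59.7 scaled FPKM in the 4 controls and 239, 147, 106 and 111 in the 4 knockouts. Every knockout was above every control, and knockout animal 1 stood highest. At 30 °C the controls had 53.7, 101 and 75.4 and the knockouts 136, 103 and 139. The ranges were apart there too, but by a narrow margin between control animal 2 and knockout animal 2. The log2 fold change was 1.37 at 22 °C (SE 0.24, limma adjusted p = 0.0129) and 0.74 at 30 °C (SE 0.28, limma adjusted p = 0.0950), so Atf4 rose at 22 °C and did not pass at 30 °C. Leaving out knockout animal 2 ended the 22 °C call with hardly any change in size (1.36, limma adjusted p = 0.0513, the highest over 20 alternatives, whose lowest was 0.00212). At 30 °C Atf4 passed in 4 of 17 alternatives, those with another scaling (0.85 to 1.04) or with sample weights (0.76), and adjusted p ran from 0.0151 to 0.305.

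Atf5 (ENSMUSG00000038539, chromosome 7) encodes a relative of ATF4 that is also translated under eIF2 phosphorylation and is known as a regulator of mitochondrial protein quality control. Its 22 °C values were 61.5, 50.3, 121 and 74.0 scaled FPKM in controls and 359, 250.04, 298 and 275 in knockouts. At 30 °C they were 55.2, 76.7 and 49.0 in controls and 179, 294 and 276 in knockouts. Atf5 was the most abundant member in both knockout groups, and the lowest knockout stood well above the highest control at each temperature. It rose by a log2 fold change of 1.998 at 22 °C (SE 0.25, limma adjusted p = 0.000767) and 2.02 at 30 °C (SE 0.29, limma adjusted p = 0.00114), or 3.995-fold and 4.07-fold. Both calls held in all alternatives run, 20 at 22 °C and 17 at 30 °C. The gene overlaps Nup62 by 571 bases and Il4i1 by 272 bases on the opposite strand in the annotation. Whether the counting used strand is not given in the sources used here, so reads there cannot be assigned with certainty.

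Ddit3 (ENSMUSG00000025408, chromosome 10) encodes CHOP, a bZIP factor induced by ATF4 and linked to cell death under lasting stress. In 22 °C controls Ddit3 had 26.8, 27.9, 30.6 and 39.0 scaled FPKM, and in knockouts 238, 189, 104 and 87.6. Knockout animals 1 and 2 stood above animals 3 and 4, and all 4 above the controls. Values at 30 °C were 45.4, 53.4 and 49.6 in controls and 93.3, 124 and 136 in knockouts, again without overlap. Ddit3 rose at 22 °C (log2 fold change 2.17, SE 0.26, limma adjusted p = 0.000641) and at 30 °C (1.22, SE 0.30, limma adjusted p = 0.0186). The 30 °C call was lost without control animal 1 (1.16), without control animal 2 (1.28) and without knockout animal 3 (1.11), with adjusted p up to 0.0770. The annotation places 68 bases of Mars and 15 of Gm4189 on the opposite strand of Ddit3. It also holds a second protein-coding entry named Ddit3 (ENSMUSG00000116429), which overlaps this one by 2925 bases on the same strand. That entry is not in the deposited table, and how reads there were counted is not known.

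Atf3 (ENSMUSG00000026628, chromosome 1) encodes a bZIP factor that is a target of ATF4 and CHOP and is also one of the immediate early genes that respond to many acute stimuli. Atf3 was the least abundant member in 22 °C controls, at 0.538, 0.561, 3.95 and 2.08 scaled FPKM, and knockouts there had 17.9, 13.1, 3.78 and 5.72. Knockout animal 3 was below control animal 3, so the ranges overlapped. At 30 °C the controls had 1.97, 24.9 and 8.27 and the knockouts 102, 52.5 and 87.0, every one above every control. Atf3 rose at 30 °C (log2 fold change 3.14, SE 0.71, limma adjusted p = 0.0117). At 22 °C the estimate was 1.97 (SE 0.61, limma adjusted p = 0.126) and did not pass. The 30 °C call was lost without knockout animal 1 (2.94) and in a fit of the compared groups alone (3.14), while the 22 °C value passed with FPKM as deposited (2.16) and with sample weights (2.39).

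Other gene lists also had higher levels in the 30 °C knockouts. The summed level of 18 immediate early genes was 107 to 253 scaled FPKM in 22 °C controls, 167 to 208 in 22 °C knockouts, 294 to 1468 in 30 °C controls and 1894 to 2746 in 30 °C knockouts. Among them 13 of 18 passed as higher in 30 °C knockouts and 0 of 18 passed at 22 °C (1 at an unadjusted limma p under 0.05, 0 with limma voom). For these and the marker counts below, 8.82% of all genes passed as higher at 30 °C and 1.97% passed at 22 °C. The largest log2 fold change among those that passed at 30 °C was that of Egr3 (2.95, SE 0.51, limma adjusted p = 0.00344). Fos, a subunit of AP-1, came next (2.92, SE 0.66, limma adjusted p = 0.0116). Within the 30 °C controls, animal 2 had the highest Atf3 and the highest immediate early sum (1468), and animal 1 the lowest of both (294). In the 30 °C knockouts the order differed: animal 2 had the highest immediate early sum (2746) and the lowest Atf3 (52.5), against sums of 2417 and 1894 in animals 1 and 3. Macrophage markers moved in the same groups. Their summed level over 12 genes was 61.8 to 93.2 scaled FPKM in 22 °C controls, 105 to 241 in 22 °C knockouts, 136 to 501 in 30 °C controls and 760 to 2464 in 30 °C knockouts, and none of the 12 was at 0 in a group. In animals 1, 2 and 3 the sum was 136, 180 and 501 in 30 °C controls and 2464, 760 and 1139 in 30 °C knockouts. That was the order of Atf3 in the knockouts but not in the controls. Of these markers 11 of 12 passed as higher in 30 °C knockouts and 0 of 12 at 22 °C, where 6 did at an unadjusted limma p under 0.05 and 0 with limma voom. The 6 fibroblast markers all passed as higher in 30 °C knockouts, 478 to 960 scaled FPKM in sum against 241 to 290 in their controls. Their part in the Atf3 result was not tested.

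Cebpg (ENSMUSG00000056216, chromosome 7) encodes C/EBP gamma, a dimer partner of ATF4 on amino acid response genes. Cebpg had 27.3, 23.0, 21.3 and 24.7 scaled FPKM in 22 °C controls and 43.0, 35.2, 29.4 and 34.1 in 22 °C knockouts, without overlap. In 30 °C animals it had 12.52, 14.4 and 14.9 in controls and 15.1, 17.2 and 16.9 in knockouts, where the gap between the ranges was small. Its change was the smallest among the members that passed at 22 °C (log2 fold change 0.53, SE 0.12, limma adjusted p = 0.0352). At 30 °C the estimate was 0.22 (SE 0.13, limma adjusted p = 0.313) with a 95% interval of -0.068 to 0.51. The 22 °C call was lost in 6 of the 8 fits without 1 animal (controls 2, 3 and 4 and knockouts 1, 2 and 4; 0.44 to 0.55, limma adjusted p up to 0.102). It was also lost with no filter (limma adjusted p = 0.0614), in a fit of the compared groups alone (limma adjusted p = 0.126) and without the 2 controls whose identifiers begin with R (limma adjusted p = 0.104), so that it held in 11 of 20 alternatives. In the 30 °C comparison Cebpg passed only with FPKM as deposited (0.50). Its annotation overlaps Gm44836 by 1140 bases and Gm45094 by 617 bases on the same strand, and Gm45095 by 353 bases on the opposite strand. These genes are not in the deposited table.

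Trib3 (ENSMUSG00000032715, chromosome 2) encodes a pseudokinase that is induced by ATF4 and CHOP and restrains ATF4 in return. Trib3 had 3.84, 4.70, 4.20 and 6.02 scaled FPKM in 22 °C controls and 150.2, 162, 62.4 and 38.1 in 22 °C knockouts. It had 11.4, 7.37 and 8.75 in 30 °C controls and 81.0, 116 and 139 in 30 °C knockouts. The controls lay close together, and the lowest knockout stood above the highest control at each temperature by a wide margin. Group means in controls and knockouts were 4.69 and 103 scaled FPKM at 22 °C, and 9.16 and 112 at 30 °C. On the scale of scaled FPKM plus 1, Trib3 had the largest change of any member. It was 15.7-fold at 22 °C (log2 fold change 3.97, SE 0.37, limma adjusted p = 4.16e-05) and 11-fold at 30 °C (3.46, SE 0.43, limma adjusted p = 0.000449). Both calls held in all 20 alternatives at 22 °C and all 17 at 30 °C. In the order of group means Trib3 moved from 8th of the 10 members in 22 °C controls, below Ddit3, Cebpg and Nupr1, to 4th in 22 °C knockouts.

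**Figure D2:**
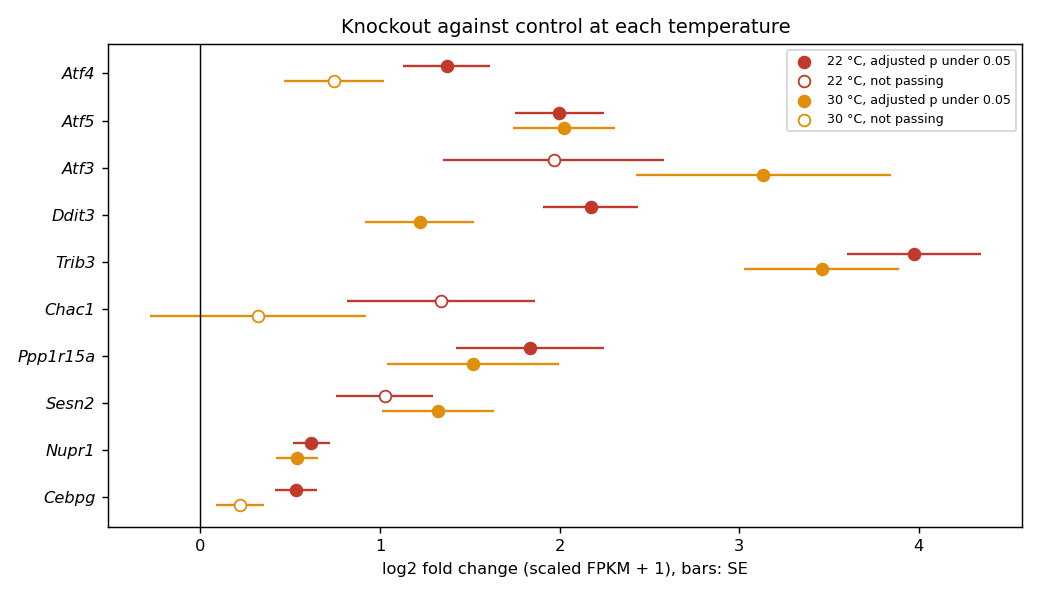
Log2 fold change of knockouts against controls for each gene at 22 °C and at 30 °C, on the scale of log2 of scaled FPKM plus 1, with bars of 1 SE. Filled points passed an adjusted p under 0.05; Trib3 lies furthest to the right at both temperatures (3.97 and 3.46), and the open points are Atf3, Chac1 and Sesn2 at 22 °C and Atf4, Chac1 and Cebpg at 30 °C.

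Ppp1r15a (ENSMUSG00000040435, chromosome 7) encodes GADD34, the regulatory subunit that brings a phosphatase to eIF2 and so ends the response. In 22 °C animals Ppp1r15a had 3.82, 5.94, 6.94 and 4.52 scaled FPKM in controls and 44.3, 29.6, 12.1 and 12.1 in knockouts. Knockout animals 1 and 2 were far above animals 3 and 4, and these above all controls. In 30 °C animals it had 7.86, 29.2 and 19.3 in controls and 44.2, 47.6 and 57.1 in knockouts, also without overlap. Ppp1r15a rose at 22 °C (log2 fold change 1.84, SE 0.41, limma adjusted p = 0.0407) and, just past the threshold, at 30 °C (1.52, SE 0.48, limma adjusted p = 0.0499). Neither call was firm: at 22 °C it held in 10 of 20 alternatives and was lost without any 1 of the 4 controls or knockout animals 1 or 2 (1.49 to 1.96, limma adjusted p up to 0.138). At 30 °C it held in 5 of 17 and was lost without control animals 1 or 3 or any 1 of the knockouts (1.03 to 1.63, limma adjusted p up to 0.191). The gene is also known to respond to acute stimuli, and the immediate early sums given above were highest in the same 30 °C knockouts. Their part in the Ppp1r15a values was not tested. Its annotation overlaps Tulp2 by 717 bases on the opposite strand.

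Chac1 (ENSMUSG00000027313, chromosome 2) encodes an enzyme that degrades glutathione and is a known target of ATF4. Chac1 had 1.74, 1.96, 5.60 and 3.27 scaled FPKM in 22 °C controls and 6.44, 20.5, 6.58 and 6.78 in 22 °C knockouts. All knockouts were above all controls, yet 3 of them were close to the highest control and knockout animal 2 stood alone. At 30 °C the controls had 16.6, 7.92 and 1.34 and the knockouts 8.61, 7.01 and 8.26, so the knockouts lay inside the range of the controls. Neither comparison passed: the log2 fold change was 1.34 at 22 °C (SE 0.52, limma adjusted p = 0.223) and 0.32 at 30 °C (SE 0.60, limma adjusted p = 0.778), with a 95% interval at 30 °C of -0.98 to 1.62. The 30 °C estimate turned to -0.48 without control animal 3. The skeletal muscle marker sum varied in the same order as Chac1 in the 30 °C controls, with 13939, 4694 and 72.3 scaled FPKM in animals 1, 2 and 3. In the 22 °C controls it was 655, 506, 6790 and 4130 in animals 1 to 4, highest in the same 2 animals as Chac1. Those animals, 3 and 4, are the 2 controls whose identifiers begin with R. Animal 3 was also the highest 22 °C control for 5 of the 10 members, Atf5, Atf3, Chac1, Ppp1r15a and Sesn2. In 22 °C knockouts the muscle sum was 591, 1213, 1112 and 1549 in animals 1 to 4. Animal 2, which had the highest Chac1, did not have the highest sum there. In 30 °C knockouts the sum was 8651, 2082 and 6711 in animals 1 to 3, in the same order as Chac1. Of the 10 muscle markers 0 passed in either knockout comparison, by limma, at an unadjusted p under 0.05 or with limma voom. Their part in the values of Chac1 or any other member was not tested.

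Sesn2 (ENSMUSG00000028893, chromosome 4) encodes sestrin 2, a leucine-binding inhibitor of mTORC1 that ATF4 induces. At 22 °C Sesn2 had 3.40, 4.55, 9.39 and 4.08 scaled FPKM in controls and 13.4, 12.4, 11.2 and 8.42 in knockouts. Control animal 3 was above knockout animal 4, which made the ranges overlap. At 30 °C controls had 3.80, 7.92 and 6.64 and knockouts 15.3, 12.7 and 22.0, with no overlap. Sesn2 rose at 30 °C (log2 fold change 1.32, SE 0.31, limma adjusted p = 0.0143), and at 22 °C the estimate of 1.03 (SE 0.27, limma adjusted p = 0.0746) did not pass. Leaving out 22 °C control animal 3 brought the 22 °C value past the threshold (1.29). The 30 °C call was lost without control animal 1 (1.06) and without knockout animal 3 (1.12). Sesn2 shares 6089 bases with Gm12981 on the same strand, a gene also in the table, so its reads may be divided between the 2 genes.

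Nupr1 (ENSMUSG00000030717, chromosome 7) encodes a small chromatin-associated stress protein that is induced through ATF4 and is known from pancreatic stress. Nupr1 had 16.1, 12.2, 14.6 and 12.8 scaled FPKM in 22 °C controls and 23.4, 22.9, 21.0 and 19.8 in knockouts. In 30 °C controls it had 19.1, 18.4 and 16.5, and in 30 °C knockouts 24.1, 28.3 and 27.6. The animals of a group lay close together, and no knockout reached down to a control. The changes were small and passed at both temperatures: 0.62 at 22 °C (SE 0.10, limma adjusted p = 0.00784) and 0.54 at 30 °C (SE 0.12, limma adjusted p = 0.00976). The 30 °C call held in all 17 alternatives and the 22 °C call in 19 of 20, missing only in a fit of the compared groups alone.

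**Figure D3:**
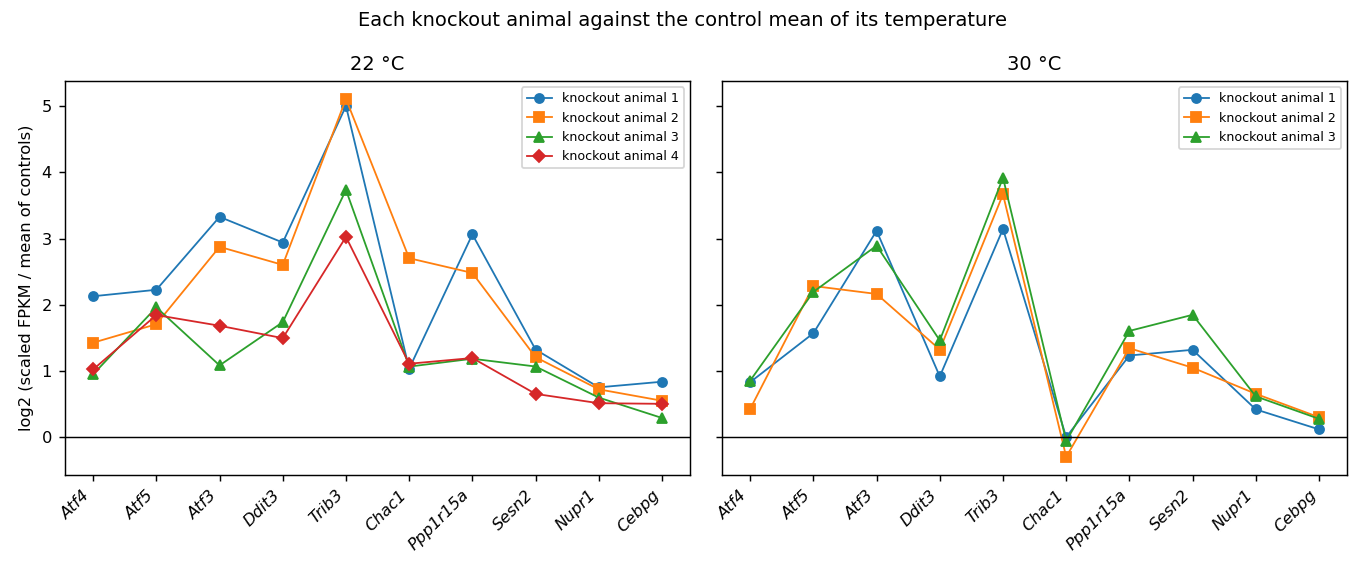
Level of each gene in each knockout animal, as the log2 ratio of its scaled FPKM to the mean of the controls at the same temperature, with 1 line per animal. At 22 °C animals 1 and 2 lie above animals 3 and 4 for 8 of the 10 genes, all but Atf5 and Chac1, and at 30 °C all 3 animals lie above 0 for every gene but Chac1.

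The knockouts at 22 °C were not alike. Animal 1 was highest of the 4 for 8 members and animal 2 for the other 2, Trib3 and Chac1, while animals 3 and 4 were each lowest for 4. The summed level of the 10 genes was 1135 scaled FPKM in animal 1, 881 in animal 2, 654 in animal 3 and 599 in animal 4, against 183 to 276 in the 22 °C controls. The lowest knockout sum was above the highest control sum at 30 °C as well, 699 against 342. Lrpprc did not follow this order: it was 10.8, 11.2, 8.84 and 10.97 scaled FPKM in animals 1 to 4, and mitochondrial reads were 1.54, 1.91, 1.295 and 1.53%. Macrophage marker sums in the same animals were 112, 241, 105 and 149, and immediate early sums 168, 167, 172 and 208. The part of any of these in the difference between animals was not tested.

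Levels relative to Atf4 differed between members. FPKM are per length, so genes may be set side by side. The ratio of Trib3 to Atf4 was 0.0722 to 0.101 in 22 °C controls and 0.343 to 1.10 in 22 °C knockouts, and 0.0727 to 0.212 against 0.593 to 1.13 at 30 °C. Ddit3 over Atf4 was 0.526 to 0.653 in 22 °C controls and 0.787 to 1.28 in knockouts, and at 30 °C 0.527 to 0.846 against 0.684 to 1.199, which overlap. Nupr1 and Cebpg went the other way at 22 °C, with Nupr1 over Atf4 at 0.213 to 0.330 in controls and 0.0979 to 0.199 in knockouts, and Cebpg over Atf4 at 0.366 to 0.559 against 0.180 to 0.307. At 30 °C both ratios overlapped, Nupr1 over Atf4 at 0.182 to 0.355 in controls and 0.176 to 0.275 in knockouts, and Cebpg over Atf4 at 0.142 to 0.233 against 0.111 to 0.166. Sesn2 over Atf4 was 0.0682 to 0.161 in 22 °C controls and 0.0560 to 0.106 in knockouts, ranges that overlap, and at 30 °C 0.0708 to 0.0881 against 0.112 to 0.159, which do not.

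Whether the knockout effect differed between temperatures was tested as the 22 °C effect minus the 30 °C effect. No member passed, nor did any of the 13079 genes (0%), by limma or by limma voom, where the smallest limma adjusted p was 0.0522. At an unadjusted p under 0.05 there were 1692 genes, among them 1 member, Ddit3, with a difference of 0.95 (SE 0.40, limma adjusted p = 0.338). The difference for Atf4 was 0.63 (95% interval -0.17 to 1.42), for Atf3 -1.17 (-3.19 to 0.85) and for Chac1 1.02 (-0.70 to 2.74). That for Atf5 was -0.025 (-0.84 to 0.79) and that for Nupr1 0.078 (-0.26 to 0.41). Intervals this wide do not show that the effects were alike.

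Housing temperature was compared within each genotype, as 22 °C minus 30 °C, with the same animals as above. In controls 4 of the 10 members passed, Cebpg higher at 22 °C and Atf3, Ppp1r15a and Nupr1 lower, where 38.8% of all genes passed, 18.2% higher and 20.5% lower. The ranges did not overlap for 5 of the 10, against 43.5% of all genes. In knockouts the same 4 genes passed in the same directions, where 51.2% of all genes passed, 21.8% higher and 29.3% lower, and 3 of 10 ranges did not overlap, against 55.8% of all genes. These shares are near or below those of all genes, so the count of members is not a result about them. The split of all genes also moved with the scaling, to 1738 higher and 3200 lower in controls with FPKM as deposited, and to 4203 higher and 2924 lower in knockouts under quantile normalization.

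Cebpg was the 1 member with a higher level at 22 °C, with a log2 difference of 0.74 in controls (SE 0.13, limma adjusted p = 0.00112) and 1.06 in knockouts (SE 0.13, limma adjusted p = 6.78e-05), and both held in all alternatives, 19 in controls and 18 in knockouts. Atf3 was lower at 22 °C, at -1.86 in controls (SE 0.66, limma adjusted p = 0.0405) and -3.03 in knockouts (SE 0.66, limma adjusted p = 0.00233). Its ranges overlapped in controls, where the call held in 11 of 19 alternatives and was lost without control animals 1 or 2 at 22 °C or 2 or 3 at 30 °C (-1.83 to -1.09). Ppp1r15a was also lower, at -1.51 in controls (SE 0.45, limma adjusted p = 0.0184) and -1.19 in knockouts (SE 0.45, limma adjusted p = 0.0396). The call in controls was lost without 30 °C animals 2 or 3 (-1.40 to -1.12), and that in knockouts without 22 °C animals 3 or 4 or any 1 of the 30 °C animals (-1.27 to -0.94). Nupr1 differed by -0.35 in controls (SE 0.11, limma adjusted p = 0.0221) and -0.28 in knockouts (SE 0.11, limma adjusted p = 0.0486). The latter held in 8 of 18 alternatives and fell to -0.15 under quantile normalization. In controls the Nupr1 call was lost without animal 2 at 22 °C or animals 1 or 2 at 30 °C (-0.34 to -0.30), and in knockouts without animals 2, 3 or 4 at 22 °C or 2 or 3 at 30 °C (-0.30 to -0.23). For Atf4, Atf5, Ddit3, Trib3, Chac1 and Sesn2 no temperature comparison passed.

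**Figure D4:**
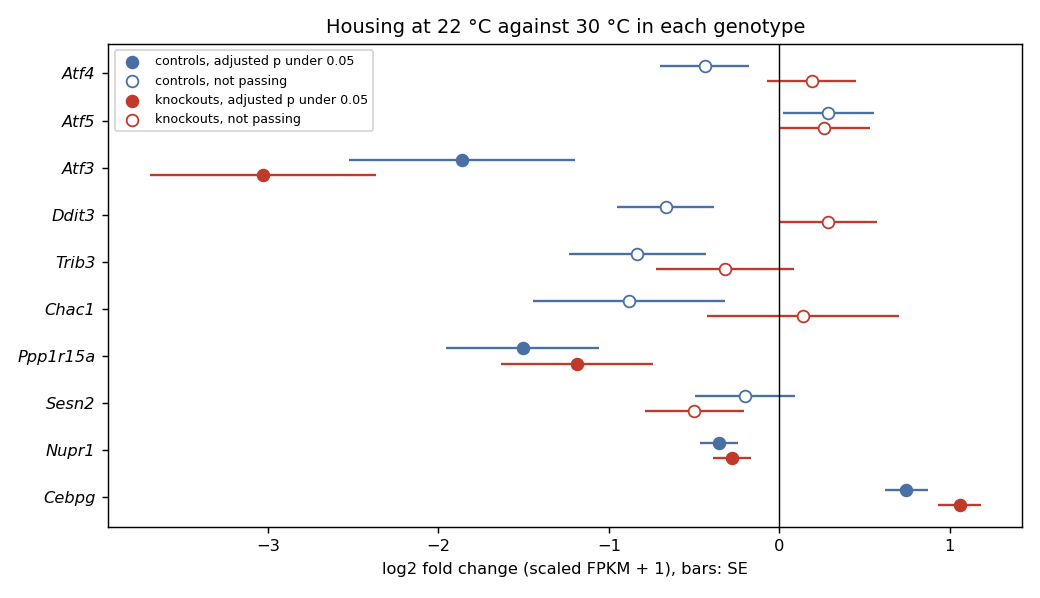
Log2 fold change of 22 °C against 30 °C for each gene in controls and in knockouts, on the scale of log2 of scaled FPKM plus 1, with bars of 1 SE. Filled points passed an adjusted p under 0.05: Cebpg lies to the right of 0 and Atf3, Ppp1r15a and Nupr1 to the left, in both genotypes.

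Genes that act before ATF4 were counted at the level of messenger RNA. Of all genes, 1.97% passed at 22 °C and 14.1% at 30 °C. Of 20 listed genes for the eIF2 kinases, the eIF2 and eIF2B subunits and their regulators, 0 passed at 22 °C (1 at an unadjusted limma p under 0.05, 0 with limma voom), with log2 fold changes from -0.32 to 0.34 and a median of -0.032. At 30 °C 1 passed, Eif2b1, a subunit of the exchange factor that eIF2 phosphorylation inhibits, which was lower (-0.42, SE 0.10, limma adjusted p = 0.0147); the median was 0.032. The messenger RNA of the HRI kinase, Eif2ak1, had a log2 fold change of -0.047 at 22 °C and -0.14 at 30 °C, and that of PERK, Eif2ak3, 0.25 and 0.19. The relay from mitochondria to HRI had Oma1 at -0.066 and 0.019 and Dele1 at -0.034 and -0.075. None of these 4 passed. The counts of 0 and 1 of 20 are near or below the shares of all genes, so they are not a result about these genes. Kinase activity was not measured.

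Close relatives of the members were compared next, to be read against the 1.97% of all genes that passed at 22 °C and the 14.1% at 30 °C. Of 12 listed paralogs 0 passed at either temperature (at an unadjusted limma p under 0.05, 0 at 22 °C and 4 at 30 °C; 0 and 0 with limma voom), with a median of 0.034 at 22 °C and 0.17 at 30 °C. Trib1 had 0.0099 and 0.42, Ppp1r15b, the constitutive counterpart of Ppp1r15a, 0.34 and 0.19, and Sesn1 -0.30 and 0.27 at 22 °C and 30 °C. Chac2, the relative of Chac1, had -0.057 and -0.088. The paralog counts are near or below the shares of all genes, so they are not a result about the paralogs. Among 20 tested bZIP partners and relatives 1 passed at 22 °C, Atf6 (0.96, SE 0.22, limma adjusted p = 0.0411), and 8 at 30 °C, all higher, with Fosl2 (2.39, SE 0.28, limma adjusted p = 0.000321), Jund (1.79), Junb (1.66), Jun (1.23) and Creb3l1 (1.18) as the largest. Jun and Junb are also in the immediate early list.

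Other target genes of ATF4 were listed by name. Of 41 tested, 15 passed as higher and 0 as lower at 22 °C, with a median log2 fold change of 0.58, and 15 passed as higher and 2 as lower at 30 °C, with a median of 0.46, where 1.97% of all genes passed at 22 °C and 14.1% at 30 °C. Mthfd2, a folate enzyme of mitochondria, rose by 3.32 at 22 °C (SE 0.22, limma adjusted p = 4.75e-06) and 2.71 at 30 °C (SE 0.26, limma adjusted p = 9.84e-05). Gadd45a, a stress gene of growth arrest, rose by 3.26 and 3.51, and Aldh18a1, the first enzyme of proline synthesis, by 1.62 and 1.95. The amino acid transporter subunit Slc3a2 rose by 1.49 and 1.001. The secreted factor genes differed in where they passed: Fgf21 rose at 22 °C (2.08, SE 0.47, limma adjusted p = 0.0407) and had 1.25 at 30 °C (limma adjusted p = 0.145), and Gdf15 rose at 30 °C (3.79, SE 0.88, limma adjusted p = 0.0132) and had 2.37 at 22 °C (limma adjusted p = 0.137). The difference between temperatures did not pass for either. Not every listed target moved: Asns, a common marker of the pathway, had 0.58 and 0.30, Cth -0.035 and 0.11, and Ddit4 -0.95 and -0.35, none of which passed. Eif4ebp1 (-0.37) and Map1lc3b (-0.41) were lower at 30 °C. In RefSeq promoter windows, TGATGCAA was found in 9 of 33 listed targets with an entry, against the share of all genes given above.

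Markers of neighbouring stress programmes were counted in the same way, to be read against the 1.97% of all genes that passed at 22 °C and the 14.1% at 30 °C. Of 21 listed genes of the endoplasmic reticulum response 3 passed at 22 °C, Ern1 (1.34), Atf6 (0.96) and Edem1 (0.68), and 4 at 30 °C, Sdf2l1 (1.54), Edem1 (1.10), Ern1 (1.02) and Manf (0.74), all higher. Hspa5, the main chaperone of the compartment, passed at neither. Of 10 mitochondrial chaperone and protease genes 1 passed, Lonp1, a matrix protease, higher at 22 °C (1.304, SE 0.26, limma adjusted p = 0.0258) and at 30 °C (0.995, SE 0.30, limma adjusted p = 0.0452). Of 10 tested p53 targets 0 passed at 22 °C and 3 at 30 °C, Cdkn1a (2.001), Btg2 (1.87) and Bbc3 (0.97). At an unadjusted p under 0.05 none of the p53 targets passed at 22 °C, nor with limma voom, and Btg2 is in the immediate early list as well.

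**Figure D5:**
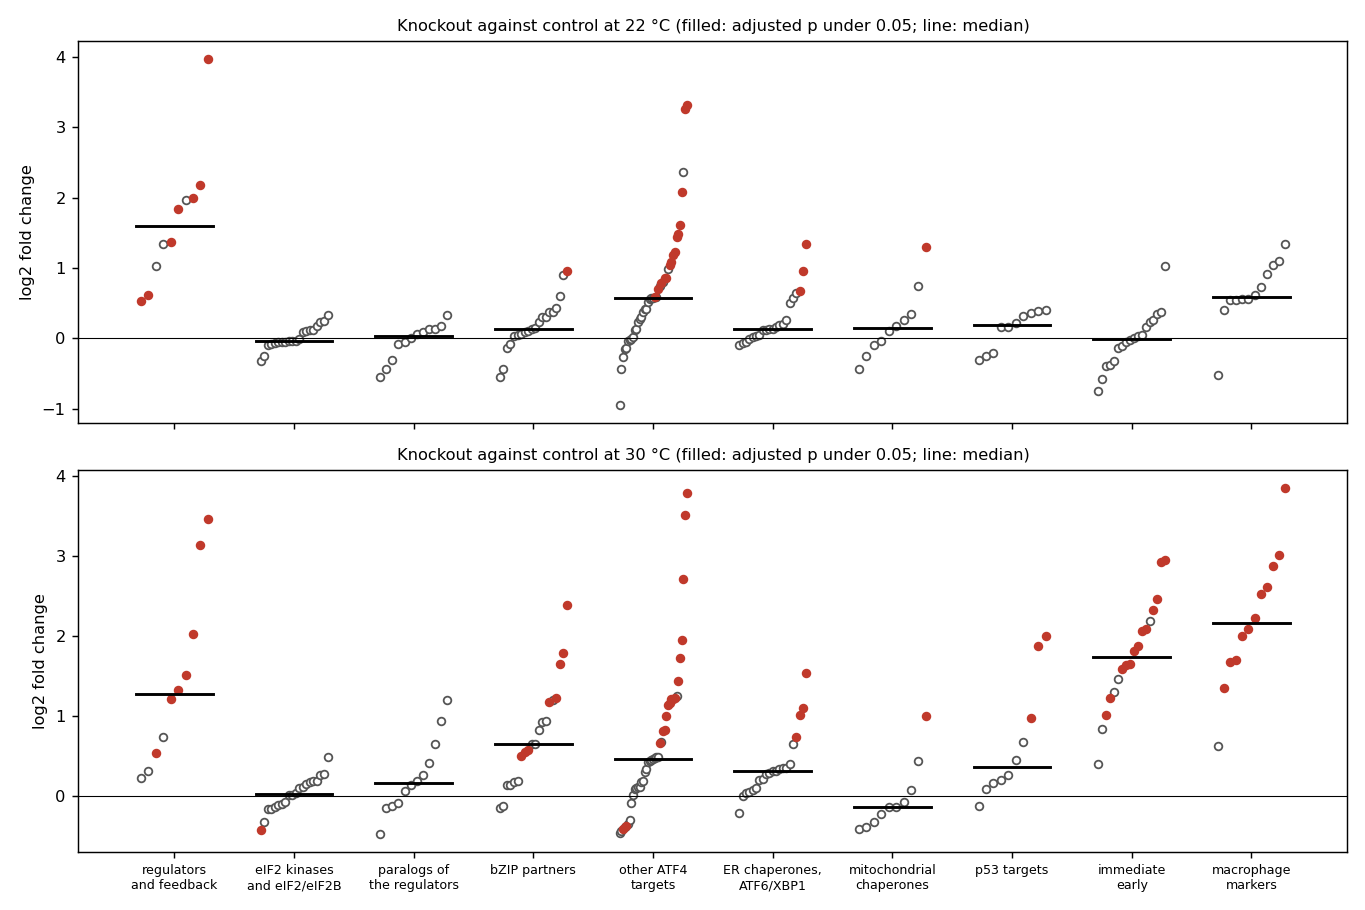
Log2 fold change of knockouts against controls for every tested gene of 10 gene lists, at 22 °C in the upper panel and at 30 °C in the lower, each gene a point and filled where its adjusted p was under 0.05, with a line at the list's median. The regulators and feedback genes have the highest median at 22 °C (1.603), while at 30 °C the immediate early genes (1.74) and macrophage markers (2.16) lie higher than their 1.27.

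Genes whose levels followed each member most closely were found by Pearson correlation over the 14 animals, after the mean of each temperature was subtracted. The animals share genotype groups, so these values describe the groups' difference as much as the animals. Among 7731 genes of at least 5 FPKM in the mean, Atf4 was most like Ifrd1 (r = 0.966) and Slc3a2 (0.962), and among the members like Ppp1r15a (0.958). Atf5 was most like Mthfd2 (0.972) and Cbr3 (0.968), and Trib3 most like Gadd45a (0.980) and Cbr3 (0.971). Ddit3 was most like Arhgef2 (0.9746) and, among the members, like Trib3 (0.968). Atf3 was most like Plk3 (0.937) and Gdf15 (0.936). Ppp1r15a was most like Pvr (0.951), Sesn2 like Necap2 (0.959), Nupr1 like Xpot (0.941) and Cebpg like Rhbdd1 (0.942). Chac1 stood apart: its closest gene was Map3k20 (0.817), its closest member Nupr1 (0.594), and it was the least alike member to each of the other 9.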

How the data were processed

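Gene expression was measured by RNA sequencing of brown adipose tissue in 14 libraries, 4 knockouts and 4 controls at 22 °C and 3 of each at 30 °C. Per the labels, total RNA came from homogenised tissue. The authors deposited FPKM, fragments per kilobase relative to library depth, with a column for each animal. The submitters' processing notes name the build mm9; the aligner, the counter, the annotation and the use of strand are not given in the sources used here. Depth was worked out from the spacing of low FPKM values, and with it 99.9% of the tested genes gave whole reads within 0.02 of a read. Recovered read numbers hold the spread between animals as well as counting error, and the limma intervals rest on the spread between animals.

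Gene identifiers were matched to symbols in an annotation of GRCm38 for 34490 of 35275 genes. Genes of at least 1 FPKM in at least 3 samples were kept, 13079 in all. Each library was scaled by its median ratio to the geometric mean over 10021 nuclear genes of at least 1 FPKM in every library, since mitochondrial reads differ between genotypes. Knockout libraries had factors of 0.835 to 0.955 and control libraries of 1.06 to 1.22. The scale of analysis was log2(scaled FPKM + 1), with 1 as pseudocount, which understates changes of low genes. The 4 group means were fitted across all genes by limma 3.58.1 in R 4.3.3, using lmFit and a trended eBayes, with Benjamini-Hochberg adjustment over all genes and a threshold of 0.05. Labels identify animals singly; p-values measure the spread between these libraries, and replicate numbers follow accession order and pair nothing. The method was tested on simulated data.

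Alternatives were a pseudocount of 0.1, no filter or a mean of at least 5 FPKM, FPKM as deposited, quantile normalization, the same total over nuclear genes, a fit of the compared groups only, eBayes that was robust or had no trend, sample weights, leaving out the 2 controls at 22 °C whose identifiers begin with R, limma voom on recovered reads, and leaving out each animal. The members and gene lists were chosen with earlier results of these data known, so no list gives independent support. The rule for naming took the 10 members, Lrpprc and Ucp1, up to 5 passing genes of each list by size of change and the 3 of highest level, and the most alike genes. Not every gene that this rule picked is printed. Other genes named from the lists were chosen after their values were seen: Eif2ak1, Eif2ak3, Oma1, Dele1, the paralogs, Asns, Cth, Ddit4, Eif4ebp1, Map1lc3b, Hspa5, Xist, Ddx3y and any value of a listed gene at a temperature where it did not pass. Of 6 tested endothelial markers 1 passed as higher at 30 °C, Cldn5, the only one with an estimate above 0, and the list's median was -0.26. Of 6 tested genes in the T and B cell list 1 passed as higher there, Ptprc. Of all genes, 8.82% passed as higher at 30 °C, so these counts of 1 are not a result about the lists. At 22 °C 0 passed in either list (0 at an unadjusted limma p under 0.05 and with limma voom). Tables used Python 3.11.15, pandas 2.3.3, numpy 2.4.6 and scipy 1.17.1, and plots matplotlib 3.10.9. Protein sequences were not used here.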

Additional observations from a re-analysis of the deposited data

Results flagged for a closer look

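Chac1 in the 22 °C knockouts had 1 animal far from the others of its group: animal 2 stood at 20.5 scaled FPKM, while the other 3 lay between 6.44 and 6.78. The gap made up 0.976 of the group's whole range. It was the only such case among the 20 groups of 4 animals examined over the 10 genes, and chance gives about 1 in 20.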

How the results depend on the processing

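No paired analysis was possible because the labels name animals singly and give no number that ties animals of different groups. The number of members that passed at 22 °C was 7, and it was 4 in a fit of the compared groups alone and 4 to 7 without 1 animal, lowest without knockout animal 2; at 30 °C it was 7 and became 4 to 6 without 1 animal, lowest without control animal 1 or knockout animal 3. For temperature it was 4 and became 1 to 4 in controls without 1 animal (1 without 30 °C animal 2, 2 without 22 °C animal 2) and 2 to 4 in knockouts (2 without 22 °C animals 3 or 4 or 30 °C animals 2 or 3), and 2 in knockouts with no filter. No member passed the difference between temperatures in any alternative. Over all genes, the count at 22 °C was 130 with no filter, 3248 as deposited, 461 with the same nuclear total, 83 with the compared groups alone, 906 with sample weights and 71 to 271 without 1 animal, with 105, 127, 152, 97 and 71 without controls 1, 2 and 4 and knockouts 1 and 2. At 30 °C it was 4571 as deposited, 3650 with sample weights and 817 to 2112 without 1 animal, with 1010, 895, 817 and 893 without controls 1 and 2 and knockouts 1 and 3. For temperature it was 3486 to 5742 in controls and 5082 to 6423 in knockouts without 1 animal, and 4250 in knockouts at a mean of at least 5 FPKM. The difference between temperatures gave 9 genes with no filter, 6 as deposited, 8 under quantile normalization, 10 with the same nuclear total, 7 without trend, 212 with sample weights and 0 to 135 without 1 animal, highest without 30 °C knockout animal 2.

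Direction turned for values that did not pass. Atf5 in controls between temperatures was -0.062 with sample weights and -0.090 without the R controls, and its difference between temperatures 0.22 and 0.35 in these settings and -0.25 to 0.22 without 1 animal. Without 1 animal, the Ppp1r15a difference ran from -0.077 to 0.81, Chac1 at 30 °C from -0.48 to 0.97, and in knockouts between temperatures Atf4 from -0.056 to 0.33, Trib3 from -0.61 to 0.075 and Chac1 from -0.23 to 0.28. Fewer samples in a fit lower its power; the cause of the other changes was not tested. With 3 or 4 animals a group, a member that did not pass is not shown to be unchanged.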

Other observations

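Brown adipocyte markers were given above only as a sum. Ppargc1a, a coactivator of mitochondrial and thermogenic genes, was higher in 22 °C knockouts (1.14, SE 0.26, limma adjusted p = 0.0412), and Adipoq, an adipocyte hormone, was lower at 22 °C (-0.79, SE 0.14, limma adjusted p = 0.0161) and at 30 °C (-1.24, SE 0.17, limma adjusted p = 0.000872). Ucp1, the uncoupling protein of brown fat, had 1308 to 3160 scaled FPKM in 22 °C controls and 1475 to 3358 in 22 °C knockouts, which overlap. In 30 °C animals it had 565 to 1073 in controls and 269 to 361 in knockouts, lower with a log2 fold change of -1.31 (SE 0.36, limma adjusted p = 0.0302), a call that held in 11 of 17 alternatives. Cox8b (-1.31, SE 0.19, limma adjusted p = 0.00118) and Cidea (-0.79, SE 0.20, limma adjusted p = 0.0213) were also lower in 30 °C knockouts.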
